A study of Homo sapiens with 32 samples.

Results

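The genes described here are the protein-coding ZNF genes that lie away from the large zinc finger arrays of chromosomes 7 and 19. They were taken from the RefSeq annotation of GRCh38 by position and name alone: every protein-coding gene on chromosomes 1 to 22 whose symbol is ZNF followed by a digit, without chromosomes 7 and 19 and without the ends of the long arms of chromosomes 1 and 12, where further arrays lie. This gave 206 genes on 18 chromosomes, out of 19126 protein-coding genes of chromosomes 1 to 22. For comparison, chromosome 19 holds 250 ZNF genes and chromosome 7 holds 35, and the excluded ends hold 14, 7 between bases 246945546 and 248859085 of chromosome 1 and 7 between bases 132918306 and 133214832 of chromosome 12.

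H3K9me3, the trimethylated form of lysine 9 of histone H3, was measured by chromatin immunoprecipitation and sequencing in LOVO and RKO, which the labels call colon adenocarcinoma cells. The labels list 8 libraries made with an H3K9me3 antibody, 4 for each line, from cells carrying a control short hairpin RNA (shControl) or one named for METTL3 (shMETTL3), each condition in duplicate. The data used are 2 lists of peaks, one named for LOVO and one for RKO, and neither says which library, replicate or condition it came from, so control and METTL3 knockdown cannot be separated here. Each line is 1 list, without replicates, with no score per peak and with unknown sequencing depth. No test between the lines was therefore possible, and all values below are descriptions of these lists.

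ZNF genes encode proteins with C2H2 zinc fingers, and many of them belong to the KRAB zinc finger family. KRAB zinc finger proteins bind DNA through their fingers, often in transposable elements, and recruit the corepressor TRIM28 (KAP1) and the methyltransferase SETDB1, which deposits H3K9me3. The genes themselves are a known place of the same mark, which in many cell types lies over the 3′ part of the gene, where the last exon usually encodes the whole run of fingers. Not every gene with a ZNF symbol is of this family: several long genes with this name, such as ZNF423, ZNF462, ZNF521 and ZNF804A, encode zinc finger proteins without a KRAB domain.

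Few start sites were met by a peak, in ZNF genes as in other genes. The reference gave promoter windows of 300 bases (250 before to 50 after the start) for 164 of the 206 genes. A LOVO peak met the window of 4 of them (2.44%, background 0.514% of 12457 other genes of the same chromosomes) and an RKO peak that of 2 (1.22%, background 0.827%). Among marked genes the shares were 6.35% in LOVO and 4.44% in RKO, against 2.81% and 3.55% of other marked genes. The windows below are from RefSeq on GRCh38.p14, written 5′ to 3′ on the strand of the gene, with CG dinucleotides, the sites of DNA methylation, in capitals. The first pair lay wholly under a LOVO peak (ZNF502 at chr3:44712410-44712709, plus strand, and ZNF454 at chr5:178940948-178941247, plus strand), and the third wholly under an RKO peak (ZNF804A at chr2:184598279-184598578, plus strand).
ZNF502: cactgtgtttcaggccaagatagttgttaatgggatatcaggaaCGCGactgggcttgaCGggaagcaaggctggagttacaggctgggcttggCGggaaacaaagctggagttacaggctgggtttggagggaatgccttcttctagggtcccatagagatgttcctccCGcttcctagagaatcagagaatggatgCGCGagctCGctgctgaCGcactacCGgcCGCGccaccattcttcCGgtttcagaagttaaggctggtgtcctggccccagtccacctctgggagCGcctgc
ZNF454: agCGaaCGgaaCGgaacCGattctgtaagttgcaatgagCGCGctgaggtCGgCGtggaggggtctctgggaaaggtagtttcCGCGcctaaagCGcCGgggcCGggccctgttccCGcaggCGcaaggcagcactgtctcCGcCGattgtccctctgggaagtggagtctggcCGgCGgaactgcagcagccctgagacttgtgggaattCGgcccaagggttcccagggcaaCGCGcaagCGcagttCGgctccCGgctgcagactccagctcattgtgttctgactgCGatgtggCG
ZNF804A: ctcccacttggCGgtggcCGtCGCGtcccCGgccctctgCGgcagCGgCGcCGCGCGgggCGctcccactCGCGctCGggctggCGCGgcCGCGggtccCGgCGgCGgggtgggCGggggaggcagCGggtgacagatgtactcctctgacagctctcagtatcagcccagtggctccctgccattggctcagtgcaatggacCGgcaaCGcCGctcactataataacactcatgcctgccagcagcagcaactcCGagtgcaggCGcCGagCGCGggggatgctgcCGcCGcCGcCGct
The next pair belongs to ZNF594 (chr17:5191819-5192118, minus strand) and ZNF189 (chr9:101398601-101398900, plus strand), the genes with the largest covered share of the body in LOVO among those with a window free of peaks.
ZNF594: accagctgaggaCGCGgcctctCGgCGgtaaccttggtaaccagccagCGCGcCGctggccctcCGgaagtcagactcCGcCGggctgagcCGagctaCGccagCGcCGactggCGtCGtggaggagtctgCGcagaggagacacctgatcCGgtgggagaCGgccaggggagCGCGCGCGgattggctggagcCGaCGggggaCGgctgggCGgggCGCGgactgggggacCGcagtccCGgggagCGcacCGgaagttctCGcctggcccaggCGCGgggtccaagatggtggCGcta
ZNF189: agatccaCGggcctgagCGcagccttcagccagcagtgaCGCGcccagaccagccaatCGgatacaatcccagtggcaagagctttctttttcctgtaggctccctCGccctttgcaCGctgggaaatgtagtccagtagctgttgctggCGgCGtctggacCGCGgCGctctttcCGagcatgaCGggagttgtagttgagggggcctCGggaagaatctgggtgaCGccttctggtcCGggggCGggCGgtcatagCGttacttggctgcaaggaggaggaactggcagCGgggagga
CG number did not separate the covered windows printed above from the uncovered ones. The window of ZNF502 held 14 CG, that of ZNF454 27 and that of ZNF804A 36, while the uncovered windows of ZNF594 and ZNF189 held 37 and 21. Of all promoter windows in the reference, 50.4% held at least as many CG as ZNF502, 28.4% as ZNF454, 12.9% as ZNF804A, 11.4% as ZNF594 and 39.7% as ZNF189. The other windows met by a peak were those of ZNF239 and ZNF518A in LOVO and of ZNF595 in RKO. The median window of the 164 genes held 22 CG, against 21 over the windows of other genes.

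A gene was called marked where at least 1 base of its body, from the first to the last annotated position, lay under a peak. In the LOVO list 77 of the 206 ZNF genes were marked (37.4%), where the background was 14.9% of 15940 other protein-coding genes of the same chromosomes and 15.5% of all protein-coding genes. In RKO 57 were marked (27.7%), where the background was 20.6% and 20.5%. The LOVO list is the shorter of the lists, with 14804 peaks over 39.6 Mb on chromosomes 1 to 22, against 21931 peaks over 69.8 Mb in RKO. With the RKO list shortened to its 14804 widest peaks, 49 ZNF genes were marked in RKO, and other genes were not counted with that list. With the full lists the ZNF genes were therefore marked more often than other genes in both, with the wider margin in LOVO. Without the ZNF genes in dense stretches, described below, the RKO share was 22.2%. The 20.6% of other genes keeps those in dense stretches, and in dense RKO stretches RKO peaks met 38.8% of other genes. These shares are therefore not on a like basis. The shares of 37.4% and 27.7% compare with 42.8% and 27.6% on chromosome 19 and with 54.3% and 25.7% on chromosome 7.

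Marked ZNF genes were also covered over more of their bodies. LOVO peaks covered 558.7 kb of the 206 bodies, 4.896% of their length, against 1.09% for other genes of the same chromosomes. RKO peaks covered 372.6 kb, 3.27%, against 2.16%. At least 10% of the body lay under LOVO peaks in 44 genes (21.4%, background 1.7%) and under RKO peaks in 25 genes (12.1%, background 4.71%). Among marked genes the median covered share was 14.5% in LOVO and 7.68% in RKO, against 2.95% and 4.80% in other marked genes. The bases of these genes made up 1.41% of all LOVO peak bases and 0.534% of all RKO peak bases.

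Peaks over the ZNF genes were wide ones in LOVO. In that list 155 peaks touched a ZNF gene, with a median width of 2.677 kb, where the median of the list was 2.001 kb. Of these, 23.9% were wider than 5 kb, against 4.27% of the whole list. In RKO 113 peaks touched a ZNF gene, with a median of 2.891 kb against 2.587 kb, and 12.4% against 10.7% were wider than 5 kb. A wider peak touches a gene more easily, so the width of touching peaks is in part set by the choice itself. The widest LOVO peak of all over these genes, 14.2 kb on chromosome 11 from 3357087 to 3371291, covered 63.0% of ZNF195. The widest in RKO, 13.2 kb on chromosome 9 from 112988384 to 113001544, lay in ZNF883.

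Longer genes are met by peaks more easily, and the ZNF genes were compared with other genes of like length. Under 20 kb, LOVO peaks met 19 of 87 ZNF genes (21.8%) and RKO peaks 8 (9.195%), against 1.86% and 3.34% of 6924 other genes. From 20 to 50 kb the counts were 25 and 19 of 62 (40.3% and 30.6%), against 7.97% and 14.7%. From 50 to 100 kb they were 17 and 15 of 28 (60.7% and 53.6%), against 22.1% and 33.6%. Over 100 kb the ZNF genes were close to other genes, with 16 and 15 of 29 (55.2% and 51.7%) against 49.8% and 59.6%. The excess of marked ZNF genes was thus in the short and middle length classes in both lists.

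**Figure D1:**
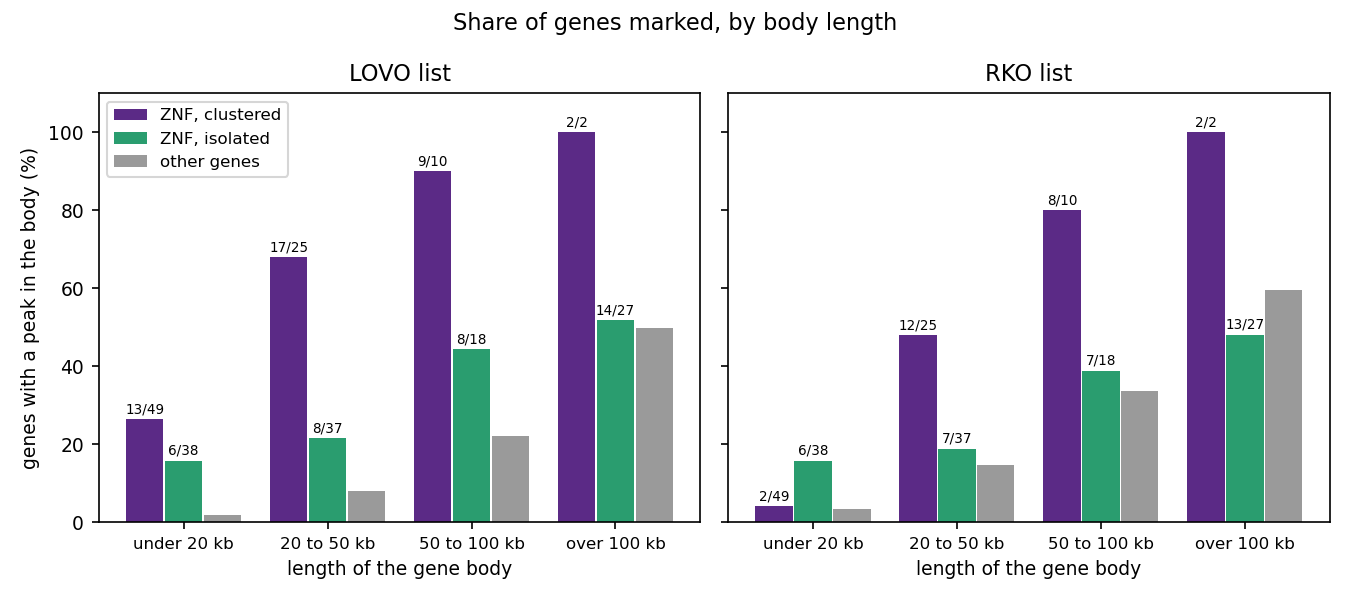
Share of genes with a peak in the body (vertical axis, %) by body length (horizontal axis) for clustered ZNF genes, isolated ZNF genes and the other protein-coding genes of the same chromosomes, in the LOVO list (left) and the RKO list (right); the fractions give marked genes over genes in the class. Clustered ZNF genes of 20 to 50 kb were marked in 17 of 25 cases in LOVO and 12 of 25 in RKO, and isolated ZNF genes over 100 kb were marked about as often as other genes.

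The lines shared more of their marked genes than of the covered bases, in ZNF genes as in other genes. A peak was present in both lists in 41 genes (19.9%, background 10.5%), in LOVO only in 36 (17.5%, background 4.4%), in RKO only in 16 (7.77%, background 10.1%) and in neither in 113. The 41 shared genes were 53.2% of those marked in LOVO (background 70.5%) and 71.9% of those marked in RKO (background 51.0%). This count rests in part on peaks of the commonest width, 2.001 kb: with only wider peaks 21 genes were marked in both lists and 25 in RKO only, and with at least 10% of the body covered 11 were marked in both and 14 in RKO only. Wider peaks alone ended 20 LOVO calls and 11 RKO calls. Over bases, 78.5 kb were covered in both lists, 14.1% of the LOVO bases in these bodies and 21.1% of the RKO bases. In other genes of the same chromosomes 39.2% of LOVO and 19.7% of RKO bases were covered in both. Among the 93 genes marked in either list, 57 had more bases under LOVO peaks, 35 had more under RKO peaks and 1, ZNF684, had the same number, while among 3989 other marked genes 1153 had more in LOVO and 2752 had more in RKO.

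**Figure D2:**
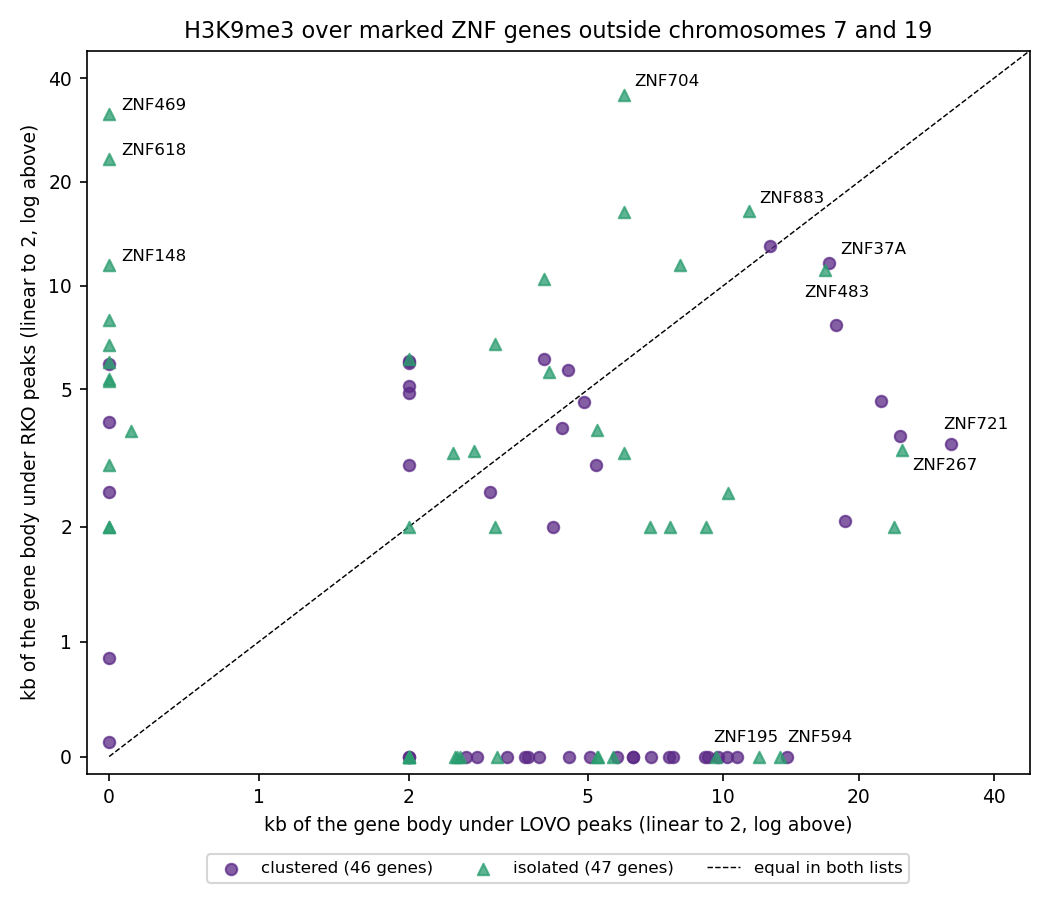
Each point is 1 of the 93 marked ZNF genes, with the kb of its body under LOVO peaks (horizontal axis) and under RKO peaks (vertical axis), both linear to 2 kb and logarithmic above; circles are clustered and triangles isolated genes, and the dashed line marks equal values. The 36 genes marked in LOVO only lie along the bottom and the 16 marked in RKO only along the left side, where ZNF469, ZNF618 and ZNF148 are the highest.

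Among genes marked in both lists, the sizes were often very unequal. ZNF721, in the array at the tip of the short arm of chromosome 4, had 6 LOVO peaks over 32.1 kb (54.3% of its body from 439988 to 499156) and 1 RKO peak over 3.48 kb, and none of these bases was covered in both lists. ZNF267 on chromosome 16 had 24.9 kb in LOVO (57.3% of the body) and 3.35 kb in RKO. ZNF782 on chromosome 9 had 24.7 and 3.66 kb. All 3 genes were covered more in LOVO, and so were ZNF678 on chromosome 1 (23.9 and 2.001 kb) and ZNF184 in the histone gene region of chromosome 6 (22.4 and 4.63 kb), both with no base in common between the lists.

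More even genes of this group lay on chromosomes 9, 10 and 12. In ZNF883 LOVO peaks covered 11.4 kb and RKO peaks 16.5 kb, 47.4% and 68.5% of its body, with 11.1 kb covered in both. ZNF37A had 17.2 and 11.7 kb, and ZNF483 had 16.8 and 11.1 kb. ZNF664-RFLNA, a readthrough gene that spans ZNF664 and its neighbour RFLNA, had 12.7 and 13.1 kb. None of these bases lay in ZNF664 itself, whose body of 42.2 kb has the same start. The first covered base lay 73.4 kb (LOVO) and 72.5 kb (RKO) from that start. Without readthrough genes, 39 genes were marked in both lists. RKO had far more bases than LOVO in ZNF704. ZNF704 on chromosome 8, a long gene from 80628451 to 80884419, was the one with most RKO bases, 10 peaks over 35.8 kb against 3 peaks over 6.003 kb in LOVO. With only peaks wider than 2.001 kb, the LOVO call of ZNF704 and the RKO call of ZNF678 were lost. ZNF883, ZNF37A, ZNF483, ZNF782 and ZNF704 lie in long stretches where the whole RKO list is dense, as described below.

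Genes marked in LOVO only had a median body of 21.7 kb, against 23.5 kb for all 206 ZNF genes. Other genes of the same chromosomes marked in LOVO only had a median body of 98.8 kb. Several of the ZNF genes marked in LOVO only were covered over most of their length. ZNF594 on chromosome 17, from 5174083 to 5191868, had a single LOVO peak over 13.9 kb, 78.0% of its body. ZNF200 on chromosome 16 had 9.26 kb (72.1%), and ZNF195 on chromosome 11 had 13.4 kb. ZNF286A (11.98 kb, 56.96%), ZNF624 (10.7 kb, 27.1%) and ZNF287 (10.2 kb, 45.8%) are further genes of chromosome 17. Chromosome 17 had 4 of its 11 ZNF genes marked by LOVO peaks, over 46.8 kb, and none by RKO peaks. ZNF852 on chromosome 3 (9.72 kb, 51.6%) and ZNF322 on chromosome 6 (9.63 kb, 38.0%) complete the genes with most bases in this group.

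Genes marked in RKO only were longer, with a median body of 37.5 kb, and most of those with many bases stood alone. ZNF469, the gene of brittle cornea syndrome, on chromosome 16 from 88100931 to 88440753, had 13 RKO peaks over 31.4 kb, 9.25% of its body. ZNF618 on chromosome 9 had 7 peaks over 23.3 kb (12.9%) and ZNF148, which encodes the transcription factor ZBP-89, 2 peaks over 11.5 kb (7.68%). ZNF169 (7.94 kb), ZNF133 (6.72 kb), ZNF512B (5.99 kb) and ZNF407 (5.37 kb) followed. ZNF618 and ZNF169 lie in long stretches where the whole RKO list is dense, as described below. Of the 8 genes with most RKO bases in this group, 7 were isolated and 1, ZNF445, was clustered. Isolated genes were 11 of all 16 genes in this group and 120 of the 206 ZNF genes. A rank by bases favours long genes, and 27 of the 29 ZNF genes over 100 kb are isolated. ZNF445 encodes a KRAB zinc finger protein that keeps methylation at imprinted loci, and 1 RKO peak covered 5.93 kb of it (12.9%).

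At the lower edge of the call were genes met by a small part of a peak. ZNF280B had 130 bp under an RKO peak, ZNF518A 145 bp under a LOVO peak and ZNF250 860 bp under an RKO peak. In every other gene called in a list, at least 2.001 kb lay under its peaks, which is the commonest peak width. Of the 113 genes without a peak, 19 had a peak of either list within 10 kb of the body, and the median distance to the nearest peak was 77.6 kb in LOVO and 71.0 kb in RKO. Some long genes were free of peaks in both lists. ZNF385D on chromosome 3 has a body of 960.5 kb and lay 482.5 kb from the nearest LOVO and 389.9 kb from the nearest RKO peak, and ZNF521 (290.2 kb) and ZNF362 (173.2 kb) were the next longest.

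A ZNF gene was called clustered where another protein-coding ZNF gene lay within 250 kb of its body, and isolated otherwise. This gave 86 clustered genes in 25 clusters, 13 of them pairs, and 120 isolated genes. ZNF664 with ZNF664-RFLNA and ZNF511 with ZNF511-PRAP1 count as pairs, though each is a gene and its readthrough gene. Without readthrough genes, 81 genes were clustered and 122 isolated. Clustered genes were marked more often in LOVO: 41 of 86 (47.7%) against 36 of 120 isolated genes (30%). In RKO the shares were alike, 24 of 86 (27.9%) and 33 of 120 (27.5%). Clustered genes are shorter, with a median body of 18.1 kb against 30.3 kb, and the part of length in these shares was not tested. Among genes under 50 kb, a limit chosen after seeing the data, 40.5% of clustered and 18.7% of isolated genes were marked in LOVO, and 18.9% and 17.3% in RKO. Other genes gave 1.86% and 3.34% under 20 kb and 7.97% and 14.7% from 20 to 50 kb.

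The classes also differed over bases in LOVO. LOVO peaks covered 12.8% of the summed length of clustered genes and 2.65% of that of isolated genes. RKO peaks covered 4.46% and 2.93%. Isolated genes over 100 kb hold 6.13 of the 8.89 Mb of isolated bodies, and LOVO peaks covered 1.24% of them. Under 20 kb LOVO peaks covered 13.1% of clustered and 7.62% of isolated bodies. From 20 to 50 kb the values were 12.5% and 7.51%, and from 50 to 100 kb 16.0% and 3.64%. The part of length in the summed values was not tested. Clustered genes were marked in LOVO only in 22 cases (25.6%) and in RKO only in 5 (5.81%). Isolated genes were marked in LOVO only in 14 (11.7%) and in RKO only in 11 (9.17%). The background was 4.4% for LOVO only and 10.1% for RKO only. Under 20 kb, 13 of 49 clustered genes had a LOVO peak (26.5%) and 2 an RKO peak (4.08%), with no gene in both groups. Of 38 isolated genes 6 had a LOVO peak and 6 an RKO peak (15.8% each), with 4 genes in both groups. Other genes under 20 kb gave 1.86% in LOVO, 3.34% in RKO and 0.78% in both. Neighbours can share a peak and are not independent. Here 2 LOVO peaks and 0 RKO peaks touched more than 1 ZNF gene, and both lay in ZNF197 and its readthrough gene ZNF660-ZNF197. Other protein-coding genes inside the cluster spans were marked less often than the clustered ZNF genes. Of these, 8 of 53 (15.1%) were marked in LOVO and 8 in RKO, at a median body of 12.4 kb. Other genes outside the spans gave 14.9% and 20.6% at a median body of 26.1 kb. The shares inside the spans were above those of other genes under 20 kb given above, but the 53 genes were not divided by length.

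Clusters differed widely from one another, and the largest had no peak in any gene body. In 18 of the 25 clusters a member was marked in LOVO, in 15 in RKO, in 14 in both lists and in 6 in neither. The 9 genes ZNF48, ZNF771, ZNF768, ZNF747, ZNF764, ZNF688, ZNF785, ZNF689 and ZNF629 on chromosome 16, from 30378312 to 30787205, had no peak in any body, and 1 LOVO and 1 RKO peak lay between genes of the cluster. Their bodies measured 4.49 kb (ZNF747) to 21.8 kb (ZNF48). Under 20 kb, 95.6% of other genes and 69.4% of clustered ZNF genes had no peak in either list. The trio ZNF619, ZNF620 and ZNF621 on chromosome 3 had no peak of either list in its span of 62.7 kb, and ZNF397, ZNF24 and ZNF396 on chromosome 18 had none in their bodies but 3 LOVO and 3 RKO peaks between them.

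The array at the tip of chromosome 4, from 53321 to 499156, was the most heavily covered of the clusters of 5 or more genes in LOVO. There 28 LOVO peaks covered 94.3 kb, 21.1% of the span, and 9 RKO peaks covered 26.7 kb, 5.99%. All 5 genes were marked in LOVO: ZNF721 as above, ZNF718 with 18.6 kb, ZNF141 with 9.08 kb, ZNF732 with 5.05 kb and ZNF595 with 4.002 kb. In RKO 3 were marked, with 6.12 kb in ZNF595, 3.48 kb in ZNF721 and 2.07 kb in ZNF718. In the gene bodies of this array no base was covered in both lists.

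The cluster of 8 genes on chromosome 3, from 44431705 to 44737083, divided between the lines by gene. LOVO peaks covered 9.72 kb of ZNF852, 7.75 kb of ZNF502 (69.3% of its body) and 6.29 kb of ZNF197, and the same 2 peaks count again for the readthrough gene ZNF660-ZNF197. ZNF445 alone was marked in RKO, and ZNF660, ZNF35 and ZNF501 had no peak. The second cluster of chromosome 16, with 7 genes from 3112586 to 3443504, was divided in the same way. ZNF200 (9.26 kb), ZNF174 (4.53 kb), ZNF263 (3.67 kb) and ZNF75A (2.68 kb) were marked in LOVO only and ZNF597, next to them, in RKO only (2.52 kb), with ZNF205 and ZNF213 free of peaks.

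At the end of the long arm of chromosome 8, from 144720909 to 144950880, neighbours differed between the lists. All genes of this cluster lie in a long stretch where the whole RKO list is dense. ZNF16 (7.57 kb), ZNF7 (6.90 kb) and ZNF251 (2.001 kb) were marked in LOVO only, ZNF34 (4.03 kb) and ZNF250 (0.860 kb) in RKO only, and ZNF517 in neither. With only peaks wider than 2.001 kb, ZNF251 and ZNF250 lost their calls, and with 5 kb added to each side of the body ZNF251 and ZNF16 had 1.07 and 2.23 kb under RKO peaks. On chromosome 5 from 178711512 to 179083977, ZNF354A (5.79 kb) and ZNF354B (3.89 kb) were marked in LOVO only and ZNF454 in both lists (4.184 and 2.001 kb), with ZNF879 and ZNF354C free of peaks. In the clusters of chromosomes 3, 16 and 8 just described, no gene was marked in both lists, unlike ZNF454 in that of chromosome 5. Most genes of those clusters without a shared gene are under 20 kb. The background for both lists was 10.5% over all lengths, but 0.78% under 20 kb and 5.08% from 20 to 50 kb.

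**Figure D3:**
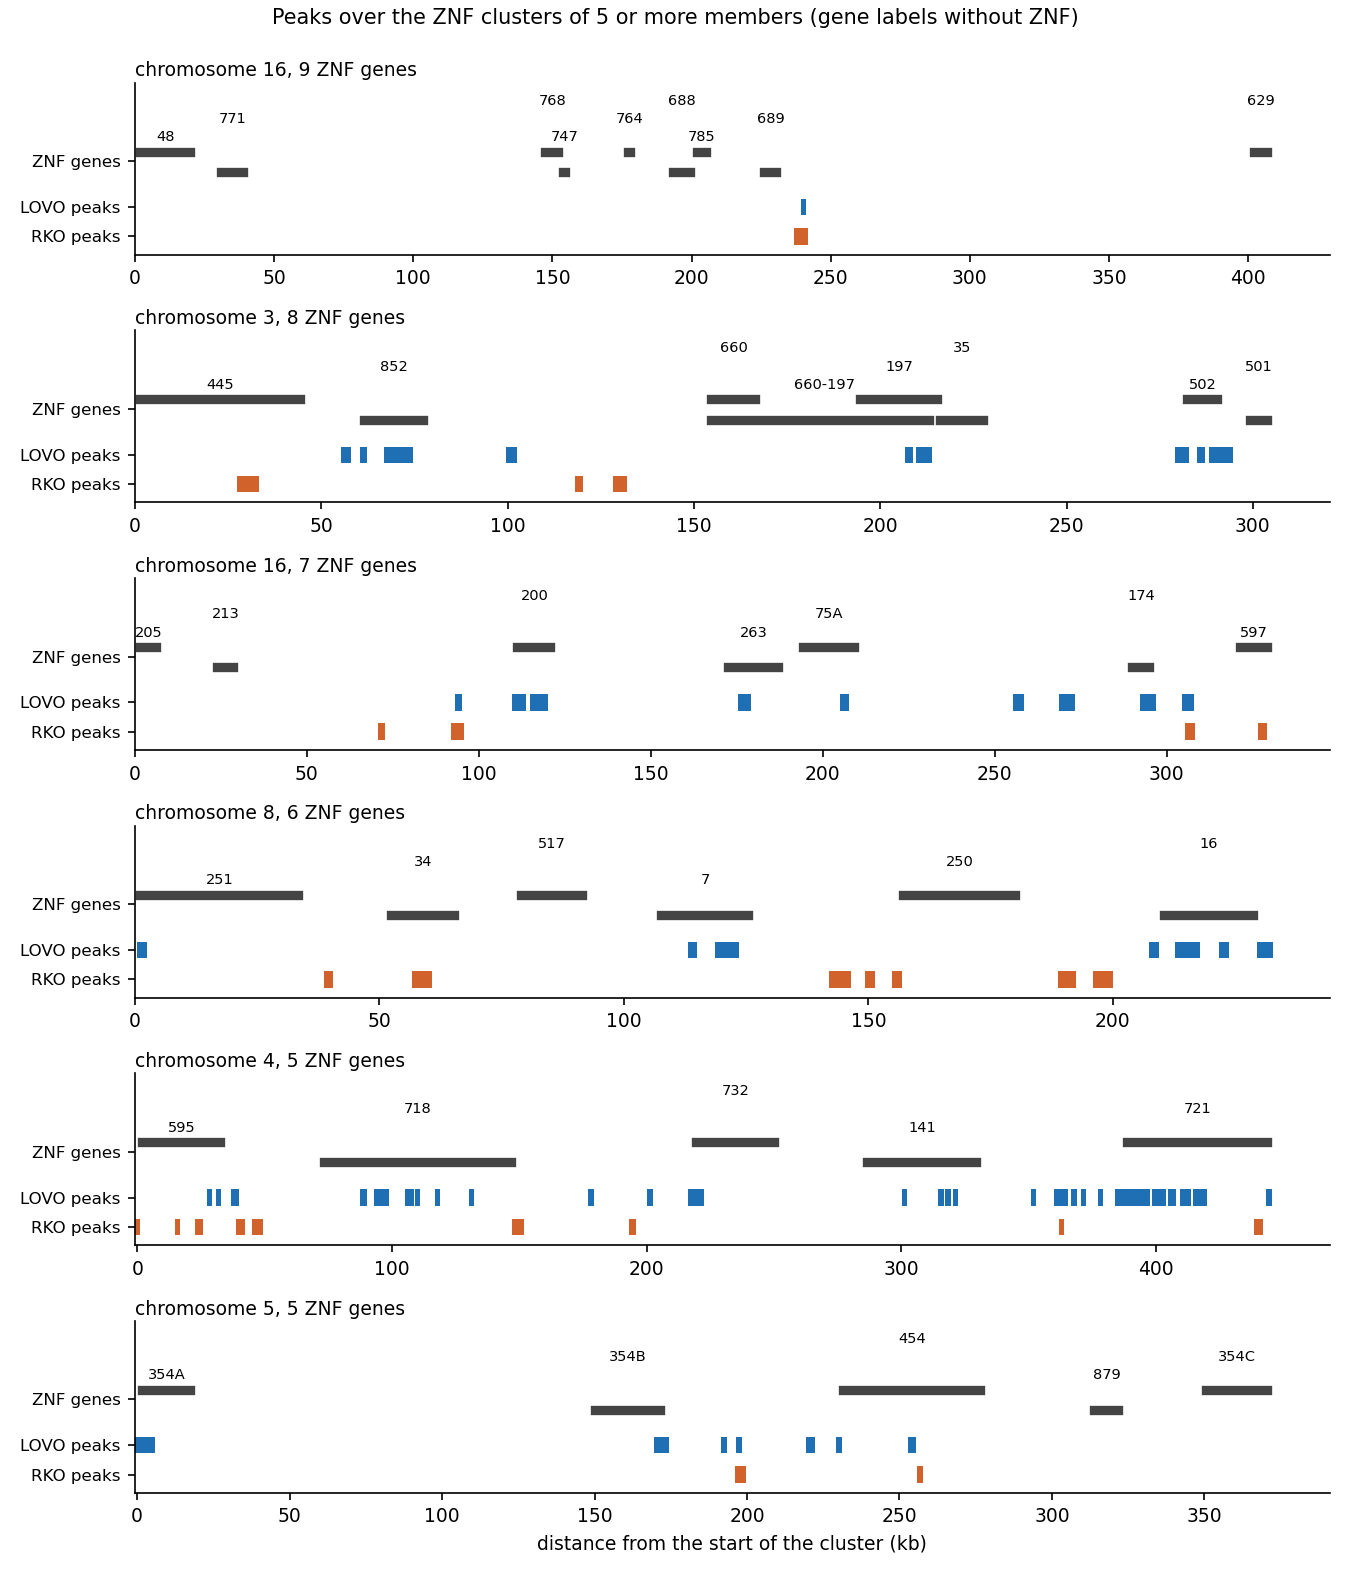
Maps of the 6 clusters of 5 or more ZNF genes, with gene bodies (grey, staggered for legibility, labelled without ZNF), LOVO peaks (blue) and RKO peaks (orange) against distance from the start of the cluster (kb). The cluster of 9 genes on chromosome 16 holds 1 peak of each list, between genes, while the array of chromosome 4 holds 28 LOVO and 9 RKO peaks.

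In 2 regions the lines came closer to each other. All genes of both regions, and ZNF189, lie in long stretches where the whole RKO list is dense, as described below. On chromosome 10 from 37758538 to 38150293, all 4 genes were marked in both lists: ZNF37A as above, ZNF33A (3.03 and 2.52 kb), ZNF25 (2.001 and 3.01 kb) and ZNF248 (2.001 and 6.05 kb), of which ZNF25 and ZNF248 lost their LOVO calls with only wider peaks. The pair ZNF510 and ZNF782 on chromosome 9 had 12 LOVO peaks over 54.0 kb of its span and 6 RKO peaks over 24.4 kb. ZNF510 was covered over 75.6% of its body in LOVO and 32.6% in RKO, with 6.495 kb in common. ZNF189, an isolated gene of the same chromosome arm, had the largest covered share of all in LOVO, 86.7% (10.2 kb), and the RKO peak over it (2.51 kb) lay wholly within those bases.

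Other clusters went both ways, some with more bases of the span under LOVO peaks and some with more under RKO peaks. With more under RKO peaks, ZNF513 and ZNF512 on chromosome 2 had 1.63% of their span under LOVO and 7.14% under RKO peaks. ZNF623 and ZNF707 on chromosome 8, in a dense RKO stretch, had 6.74% and 18.6%. With more under LOVO peaks, ZNF287 and ZNF624 had 8 LOVO peaks over 24.4% of their span and no RKO peak. ZNF391 and ZNF184 had LOVO peaks over 28.0% and RKO peaks over 7.76% of theirs. In the cluster of ZNF487, ZNF239, ZNF485 and ZNF32 on chromosome 10, ZNF487 was marked in both lists (4.37 and 3.88 kb), ZNF239 (3.63 kb) and ZNF485 (2.83 kb) in LOVO only. ZNF33A and ZNF33B are close relatives in sequence, and no source used here says what was done with reads that fit more than 1 gene, so values of such relatives are uncertain.

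Among ZNF genes of known strand, covered bases lay mostly in the later parts in LOVO, while in RKO no such order was seen. The strand was known for 164 genes, and the body of each was divided into 5 equal parts from start to end. This leaves out all ZNF genes of chromosome 8, among them ZNF704. It also leaves out ZNF469 and ZNF618, which with ZNF704 had the most RKO bases, and ZNF721, which had the most LOVO bases. Of the LOVO bases in 63 marked genes, 8.08% lay in the first part, 20.4% in the second, 19.5% in the third, 26.1% in the fourth and 25.9% in the last. Of the RKO bases in 45 marked genes, 16.3%, 24.4%, 23.1%, 15.9% and 20.2% lay in the same parts. This difference between the lists was not tested. Other marked genes of these chromosomes went the other way in both lists, from 22.2% in the first to 14.3% in the last part in LOVO and from 23.3% to 14.2% in RKO. The ZNF genes of chromosomes 7 and 19 had 8.44% in the first and 37.5% in the last part in LOVO, and 11.9% and 20.1% in RKO.

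**Figure D4:**
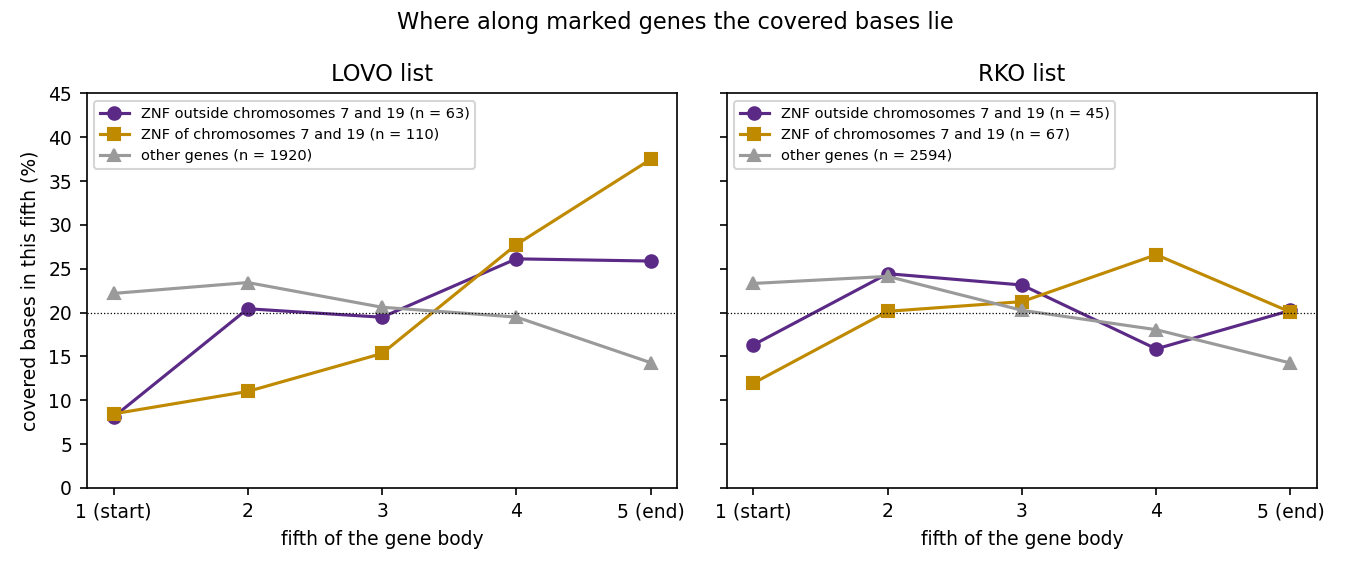
Share of covered bases (vertical axis, %) in each of 5 equal parts of the gene body from start to end (horizontal axis) for marked ZNF genes outside and on chromosomes 7 and 19 and for other marked genes, in the LOVO list (left) and the RKO list (right); the dotted line at 20% is an even spread and n is the number of marked genes with a known strand. In LOVO both ZNF lines climb from about 8% in the first part to 25.9% and 37.5% in the last, while other genes fall from 22.2% to 14.3%.

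Counted by gene, 35 of 63 ZNF genes had more LOVO bases in the last than in the first part (55.6%, background 22.1%), 12 had more in the first and 16 the same number. In RKO 15 of 45 had more in the last (33.3%, background 23.8%) and 11 more in the first. For genes under 50 kb the lines stood further apart. There 27 of 36 had more LOVO bases in the last part (75%, background 26.7% of other marked genes of that length) and 3 more in the first, while 3 of 22 had more RKO bases in the last (13.6%, background 25.6%) and 5 more in the first. The last base itself lay under a peak in 17 of 63 genes in LOVO (26.98%, background 3.39%) and in 1 of 45 in RKO (2.22%, background 4.51%). Under 50 kb these counts were 14 of 36 in LOVO (38.9%, background 13.1%) and 0 of 22 in RKO (background 12.5%).

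The start base itself lay under a peak in 4 of 63 genes in LOVO (6.35%, other marked genes 2.19%) and in 2 of 45 in RKO (4.44%, other marked genes 2.85%). The first covered base lay at a median of 12.1 kb from the start in LOVO (63 genes) and 17.0 kb in RKO (45 genes), and under 1 kb in 4 and 3 genes. The shift to the end was seen in both classes: 20 of 34 clustered and 15 of 29 isolated genes had more LOVO bases in the last part, against 6 in each class with more in the first. Among the 28 genes marked in LOVO only that have a known strand, 18 had more in the last part and 3 more in the first. Among 35 genes marked in both lists, 17 and 9 did so for LOVO bases, and 14 and 7 for RKO bases. Of 10 genes marked in RKO only, 1 had more in the last and 4 more in the first.

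Part of the RKO marking lay in long stretches where that whole list is dense, counted as runs of at least 4 neighbouring 5-Mb bins with at least 2 times the median number of peaks. In such RKO stretches lay 28 of the 206 genes, all on chromosomes 8, 9 and 10, of which 18 (64.3%) were marked in LOVO and 18 in RKO, with 13 marked in both, against 18.97% in LOVO and 38.8% in RKO of 1344 other genes there. Without all 30 genes in dense stretches of either list, LOVO peaks met 59 of 176 ZNF genes (33.5%) and RKO peaks 39 (22.2%). Other genes of the same chromosomes gave 14.9% and 20.6%, with those in dense stretches kept. The RKO bases came to 218.4 kb in place of 372.6 kb, 2.23% of the bodies against 2.16% for those other genes. The LOVO bases came to 408.8 kb, 4.18% against 1.09%. The share of other genes outside dense stretches was not counted. RKO peaks met 38.8% of other genes in dense RKO stretches and covered 6.93% of their bodies. Leaving those genes out would thus lower the RKO values of other genes. By chromosome, the 12 ZNF genes of chromosome 9 were marked most often in RKO (10 genes, 87.0 kb, against 7 genes and 92.6 kb in LOVO), and the 30 of chromosome 16 had 7 marked in LOVO and 3 in RKO. Copy number and input reads of these stretches were not analysed here, and their part in the RKO values was not tested.

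Isolated genes marked in both lists included several long genes. ZNF385B on chromosome 2 had 6.003 kb covered in LOVO against 16.4 kb in RKO, and ZNF804A, a gene near common variants linked to schizophrenia, 8.004 and 11.5 kb. ZNF462 had 4.002 and 10.4 kb, and ZNF609 had 2.001 and 6.14 kb, all higher in RKO. The LOVO peaks of these genes and of ZNF438 were all 2.001 kb wide, and with only wider peaks these LOVO calls were lost. ZNF438 (6.003 and 3.28 kb) and ZNF503 (5.23 and 3.81 kb) were higher in LOVO. ZNF462 and ZNF438 lie in dense RKO stretches. Among short isolated genes, ZNF436 had 5.25 kb in LOVO only (50.5% of its body), ZNF596 9.15 and 2.001 kb, ZNF300 2.787 and 3.304 kb with no base in common, and ZNF281 2.001 kb in RKO only. ZNF638, whose protein takes part in silencing unintegrated retroviral DNA, had 2.001 kb in LOVO only.

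Genes for partners of KRAB zinc finger proteins in H3K9 methylation were marked about as often as protein-coding genes in general. Among 25 such genes, LOVO peaks met 5 (20%, where all genes give 15.5%) and RKO peaks 6 (24%, where all genes give 20.5%), and 4 genes had both. TRIM28, the corepressor itself, had no peak in either list. SETDB1 had 2.51 and 5.27 kb, its partner gene ATF7IP 29.4 and 20.5 kb, MORC2, an ATPase of the HUSH pathway, 2.402 and 2.969 kb, and the methyltransferase gene EHMT1 4.52 and 40.6 kb. ATF7IP lies in a dense stretch of LOVO and EHMT1 in one of RKO. Peak lists hold no expression, so the labelled cell type could not be checked by its transcripts, and intestinal epithelial marker genes had peaks at the share of all genes (2 of 14, 14.3%, in LOVO and 3 of 14, 21.4%, in RKO).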

How the data were processed

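The authors deposited 2 H3K9me3 peak lists, 1 for LOVO and 1 for RKO, as 6-column files that give each peak its chromosome and its end points and hold no other measurement. The submitters' processing notes name HOMER 4.11, Picard 2.26.0, Bowtie2 2.4.2, Trim Galore 0.6.6 and FastQC 0.11.9 as tools and hg38 as build, without saying what each did. Peak-calling settings, the use of inputs, and whether libraries or conditions were pooled are not stated in any source used here. How this affects the number and width of peaks was not tested.

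Here, bases of each gene body under peaks were counted on chromosomes 1 to 22 with RefSeq GRCh38.p14 positions, and strand came from the RefSeq promoter table (164 of 206 genes). The members, lists, tests and naming rule were chosen with earlier results of these data known. Named genes were 10 genes marked in both lists with the largest sum of covered bases, 8 LOVO-only and 8 RKO-only genes with the largest covered bases, the 3 longest unmarked genes and all members of the 4 largest clusters. Others were named after their values were seen. No protein sequences were used, so the planned count of zinc fingers and KRAB domains was not run. The code was tested on simulated peaks. Python 3.11.15, numpy 2.4.6, pandas 2.3.3 and matplotlib 3.10.9 were used.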

Additional observations from a re-analysis of the deposited data

How the results depend on the processing

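No paired analysis was possible because the lists name no replicate, and single libraries could not be left out. When 10% of the body had to be covered, 44 genes were called in LOVO, 25 in RKO and 11 in both, with 15 isolated genes in LOVO and 13 in RKO and 12 clustered genes in RKO. With peaks wider than 2.001 kb, 21 genes were marked in both lists and 25 in RKO only, and 7 had more LOVO bases in the first than in the last part. Without dense stretches the RKO bases were 218.4 kb. Under 50 kb, 14 isolated genes were marked in LOVO, 13 in RKO, and 14 clustered genes in RKO. There 3 genes had more LOVO bases in the first of 5 parts, and for RKO 3 had more in the last and 5 in the first. With 10 parts of the body, 6 genes had more LOVO bases in the first part, and for RKO 9 had more in the last and 7 in the first. The cause of these changes was not tested. All of the counts stayed within 1.5 times with each chromosome left out: 65 to 77 genes marked in LOVO and 47 to 57 in RKO. The share of clustered genes marked in LOVO stayed above that of isolated genes in all settings run, with 45.05% against 28.4% for neighbours within 1 Mb and 48.1% against 30.4% within 100 kb. For RKO the order changed between settings (27.03% against 28.4% within 1 Mb). Added after seeing the data were the settings for genes under 50 kb, 10 parts and readthrough genes, the counts by part of the body under every setting, and the clustered and isolated counts with wider peaks, lists of equal size, at least 2.001 kb covered or a chromosome left out. Depth is unknown, so a gene without a peak is not shown to lack the mark.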
